A study of Mus musculus with 6 samples.

Results

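The clustered histone genes are the replication-dependent histone genes of the Hist1, Hist2, Hist3 and Hist4 loci. All rows of the deposited FPKM table (fragments per kilobase of transcript, scaled to the mapped fragments of the library) whose symbol begins with Hist1h, Hist2h, Hist3h or Hist4h were taken, which gave 67 of 23228 genes. Of these, 53 belong to Hist1 on chromosome 13, 10 to Hist2 on chromosome 3, 3 to Hist3 on chromosome 11 and 1 to Hist4 on chromosome 6. By protein, read from the symbol, 6 encode the linker histone H1, 18 encode H2A, 18 encode H2B, 12 encode H3 and 13 encode H4.

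RNA-seq was done on LSK cells, the fraction of mouse bone marrow without lineage markers and with surface Sca-1 and Kit, which holds the hematopoietic stem cells. Ly5.1+ cells of wild-type origin had been sorted from C57BL/6 recipients (Ly5.2+) 8 weeks after transplantation. The recipients were wild type (WT, 3 libraries) or ICAM-1-/- (3 libraries), so the genotype named here is that of the host, and all 6 libraries come from wild-type donor cells. Icam1 is intact in those cells and cannot check the labels. The sources used here do not give the mice's age or say whether a library pooled mice. The comparison asks whether a host without ICAM-1, an adhesion molecule found on stromal and endothelial cells among others, changes the RNA of the stem cell fraction it houses.

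Core histones H2A, H2B, H3 and H4 form the spool around which DNA is wound, and H1 binds the linker DNA between spools. Cells make most of these proteins in S phase, when new DNA must be packaged, from many near-identical intronless genes. Their mRNAs are unusual in ending in a stem-loop in place of a poly(A) tail, and the stem-loop binding protein SLBP holds that structure through processing, translation and decay. Some of the same genes also give longer, polyadenylated transcripts, chiefly in cells that have left the cycle. Most LSK stem cells are known to be quiescent, while the progenitors in the same gate divide.

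The stem-loops show what most of these genes share beyond their names, and where H4 departs from the rest. Among the 67 genes, 45 had a stem-loop in their GENCODE M21 transcript model (GRCm38). It is 16 bases long and is printed on the RNA strand in DNA letters, with the loop in capitals.
H2A, H2B, H3 and H1 form, 25 genes: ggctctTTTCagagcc
H4 form, 7 genes: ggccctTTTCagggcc
H1, H2B and H3 form, 6 genes: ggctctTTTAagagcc
Hist2h4 and Hist1h4i: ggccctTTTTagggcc
Hist1h4b and Hist1h4j: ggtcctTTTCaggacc
The first form occurred in 3 H1, 10 H2A, 7 H2B and 5 H3 genes and in 0 H4 genes. The second occurred in H4 genes alone among the models searched. Hist1h4a, Hist1h3g and Hist2h2ac each had a form of their own. In 22 genes the model ended within 100 bases of the stem-loop, in 23 it ran on for more than 100 bases, and in 22 it held no stem-loop of these forms. Some models of the last set are short, such as those of Hist1h4k (312 bases) and Hist1h2bn (381 bases), and may stop before a stem-loop. A model without one therefore does not show that the gene lacks it.

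WT replicate 1 stood apart from the other libraries, and ICAM-1-/- replicate 1 did so by some measures. Of the 23228 genes, WT replicate 1 listed 16716 at 0, ICAM-1-/- replicates 1 and 2 listed 12990 and 12908, and the remaining 3 libraries listed 9308 to 10525. Of the 62 histone genes tested below, replicate 1 of the WT and ICAM-1-/- groups listed 27 (43.5%, against 39.6% of all genes tested) and 15 (24.2%, against 10.7%) at 0. The macrophage markers, 6 of 7 of which were in the table, summed to 1683 and 701.4 FPKM in these libraries, and to 10.9 to 95.8 elsewhere. Neutrophil markers summed to 138.9 to 1987 FPKM over the 6 libraries. The lowest sum was that of ICAM-1-/- replicate 1, where 5 of the 7 in the table were listed at 0 and S100a8 alone read 134.9 FPKM. In WT replicate 1, 2 of the 7 were listed at 0. Of the markers of the sorted cells, Kit lay between 6.88 and 44.6 FPKM and Flt3 between 28.1 and 69.8, while Ly6a, which encodes Sca-1, was listed at 0 in WT replicate 1. ICAM-1-/- replicate 2 was low across the table, with a median of 2.68 FPKM over the 10477 genes tested against 4.44 to 10.1 in the other libraries. The part of macrophage RNA, library quality or depth in the results below was not tested, and results are also given for replicates 2 and 3 alone. Where bulk libraries differ, fewer cells in S phase and less histone RNA per cell cannot be told apart.

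By FPKM, many of the clustered histone genes ranked high in these libraries. Many of their transcripts are short, so each fragment weighs more in FPKM, and the capture of mRNAs without a poly(A) tail was not tested. Together the clustered histone genes summed to 10295 FPKM in WT replicate 1, 40213 in WT replicate 2 and 35737 in WT replicate 3. In the ICAM-1-/- libraries the sums were 21935, 18705 and 49365 FPKM for replicates 1, 2 and 3. The groups overlapped: the lowest library was a WT one, the highest was ICAM-1-/- replicate 3, and ICAM-1-/- replicates 2 and 3 lay on either side of WT replicates 2 and 3. As a share of all FPKM listed, these genes took 1.65%, 8.05% and 6.73% in WT hosts and 4.05%, 4.91% and 6.12% in ICAM-1-/- hosts. Small RNA genes (snoRNA, scaRNA, miRNA, snRNA, Y RNA and other small noncoding RNA, chosen by symbol) took part of the total in every library. Their part was largest in replicate 1 of both groups, followed by ICAM-1-/- replicate 3. Without them the histone shares were 5.89%, 10.9% and 9.96% in WT hosts and 9.02%, 7.03% and 11.03% in ICAM-1-/- hosts.

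**Figure D1:**
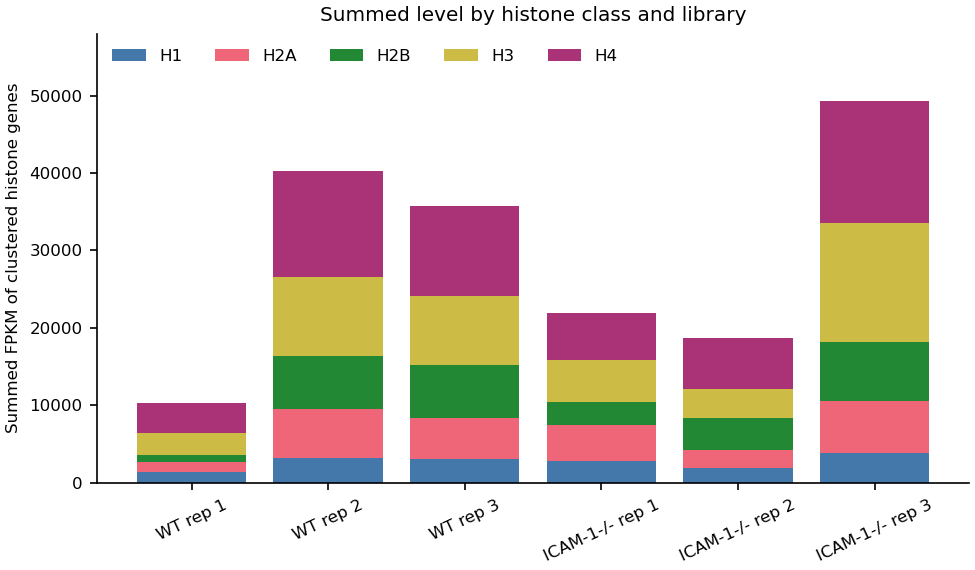
Summed FPKM of the clustered histone genes in each of the 6 libraries, with 1 bar per library and the 5 histone classes stacked. The lowest bar is WT replicate 1 (10295 FPKM), the highest is ICAM-1-/- replicate 3 (49365 FPKM), and the groups overlap.

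H4 held the largest share of the histone FPKM in every library, followed by H3 in all but ICAM-1-/- replicate 2, where H2B came next at 21.6%. H4 took 37.8%, 33.9% and 32.6% in WT hosts and 27.6%, 35.0% and 32.1% in ICAM-1-/- hosts. H3 took 28.0%, 25.3% and 24.9% in WT hosts and 24.8%, 20.6% and 31.2% in ICAM-1-/- hosts. H2B varied most, at 7.98% in WT replicate 1 and 15.3% to 21.6% in replicates 2 and 3 of either group. H2A lay between 12.6% and 21.0% and H1 between 7.66% and 13.7%. The H1 share was highest in the WT and ICAM-1-/- libraries numbered 1, at 13.7% and 12.9%, and was 7.66% to 9.75% elsewhere.

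A single gene, Hist2h4, supplied much of the H4 signal. It read 3022, 5233 and 4035 FPKM in WT hosts and 4051, 2407 and 3249 in ICAM-1-/- hosts, and its mean of 3666 ranked 9 among all genes in the table. Its share of the H4 FPKM was 77.8% and 66.9% in replicate 1 of the WT and ICAM-1-/- groups, but 20.5% to 38.4% elsewhere. Its level overlapped between groups, with a log2 difference (ICAM-1-/- minus WT, on log2(FPKM + 1)) of -0.34 ± 1.05 (SE). Hist1h4d read 154.6, 1672 and 1121 FPKM in WT hosts and 446, 1608 and 2453 in ICAM-1-/- hosts. Hist1h4h was less variable, at 372.6, 856.1 and 870 FPKM in WT hosts and 838.1, 617.6 and 1174 in ICAM-1-/- hosts. Hist1h4f read 0, 1418 and 1907 FPKM in WT hosts and 29.8, 275.6 and 2320 in ICAM-1-/- hosts, so that both libraries numbered 1 were far below the rest. These H4 genes share the second stem-loop above except Hist2h4, whose loop is TTTT.

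Among H3 genes, Hist1h3e had the highest mean over the 6 libraries, although Hist1h3b (733.1 FPKM) was above it in WT replicate 1 and Hist1h3d in ICAM-1-/- replicate 1. It read 454.5, 3023 and 3037 FPKM in WT hosts and 490.1, 1437 and 4278 in ICAM-1-/- hosts, so replicate 1 was low and alike in both groups. Hist1h3c was also lowest in replicate 1 of each group, at 102.8, 2322 and 1191 FPKM in WT hosts and 197.7, 673.9 and 2387 in ICAM-1-/- hosts. Hist1h3d differed: it read 366.4, 761 and 588.6 FPKM in WT hosts and 96.8 and 1397 in ICAM-1-/- replicates 2 and 3, but 2220 in ICAM-1-/- replicate 1, its highest library. Their log2 differences of -0.16 ± 1.16, 0.05 ± 1.28 and 0.29 ± 1.14 (SE) were all smaller than their errors.

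Hist1h2ak had the highest mean of the H2A genes, with 276.4, 2191 and 1647 FPKM in WT hosts and 2017, 742.3 and 2028 in ICAM-1-/- hosts. Hist1h2ab read 377.4, 1211 and 943.5 FPKM in WT hosts and 696.7, 423.1 and 1088 in ICAM-1-/- hosts. Hist1h2bg had the highest mean of the H2B genes, but not the highest level in every library, with 247.3, 1240 and 1044 FPKM in WT hosts and 1023, 688.6 and 1252 in ICAM-1-/- hosts. Hist2h2bb read 70.5, 905.6 and 1442 FPKM in WT hosts and 417.7, 672.3 and 1305 in ICAM-1-/- hosts. All 4 were lowest in WT replicate 1, and in each the groups overlapped.

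Of the linker histone genes, Hist1h1b was highest in every library, at 760.5, 1361 and 1127 FPKM in WT hosts and 1542, 621.3 and 1347 in ICAM-1-/- hosts. It ranked 2 among the members in WT replicate 1 and ranked 12 in ICAM-1-/- replicate 3. Hist1h1a read 81.0, 873.3 and 1051 FPKM in WT hosts and 462.2, 522.4 and 1322 in ICAM-1-/- hosts. Hist1h1c was the steadiest of all members, between 339.3 and 636.8 FPKM, a highest-to-lowest ratio of 1.88. Of 33 members above 0 in every library, 6 stayed within a 3-fold range: Hist1h1c, Hist2h4 (2.17), Hist3h2a (2.21), Hist1h2bc (2.34), Hist1h1b (2.48) and Hist1h1d (2.49).

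Testis histone genes gave little or no signal. Hist1h2ba, which encodes a testis H2B, was listed at 0 in all 6 libraries. Hist1h1t, the testis H1 gene, read at most 1.17 FPKM and was listed at 0 in 3 libraries. Hist1h2aa, the testis H2A gene, was listed at 0 in 3 libraries and read 2.43, 3.48 and 2.04 FPKM in WT replicate 1, ICAM-1-/- replicate 1 and ICAM-1-/- replicate 3.

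**Figure D2:**
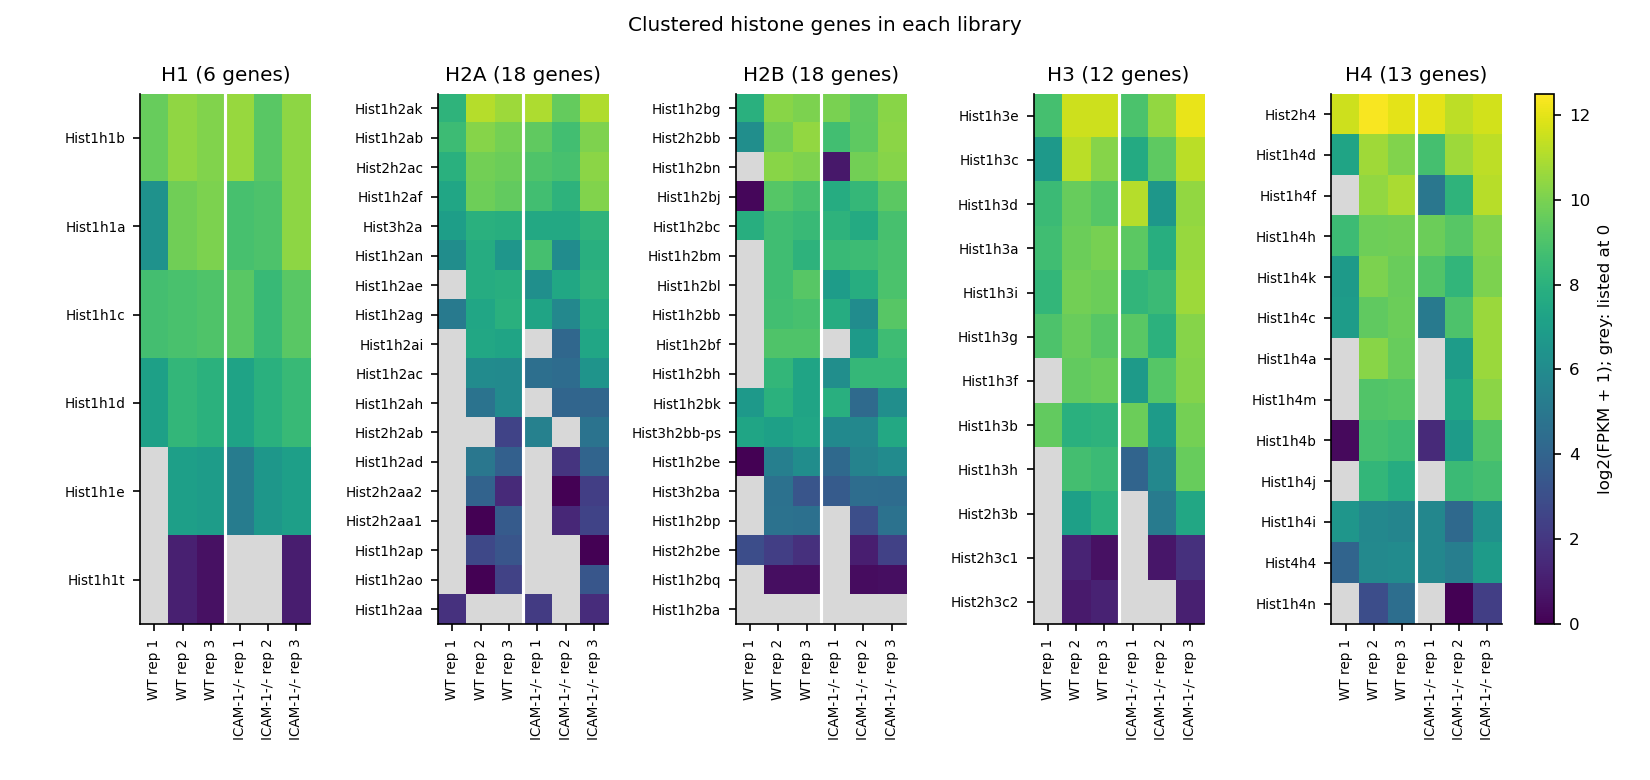
Level of each of the 67 genes in each library as log2(FPKM + 1), by histone class, with genes ordered by mean FPKM and grey cells for values listed at 0. Replicate 1 of the WT and ICAM-1-/- groups has 32 and 20 grey cells, and each of the others has 1 to 7.

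No clustered histone gene passed the test of ICAM-1-/- against WT hosts, which at the spread between these libraries does not show that they were alike. Of the 67 members, 62 passed a filter of a mean of 1 FPKM over the 6 libraries and were tested with limma across 10477 genes. At a Benjamini-Hochberg adjusted p under 0.05, 0 of 62 members were called, and 0 of all 10477 genes (0%). At an unadjusted p under 0.05, 0 members and 54 of all genes (0.515%) passed. The 3 WT and 3 ICAM-1-/- values did not separate for any of the 62 members, against 427 of all tested genes (4.08%). The log2 difference was positive for 38 members and negative for 24, or 61.3% positive against 53.8% of all tested genes. Its median was 0.13 over the members and 0.08 over all genes. By class the medians were 0.09 for H1, 0.13 for H2A, 0.57 for H2B, -0.04 for H3 and -0.09 for H4. Scaling the libraries by median of ratios, which divides all genes of a library by the same factor, moved the median of all genes to 0.24 and that of the members to 0.36.

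The median of the members depended on single libraries of both groups. Leaving out the WT libraries in turn, from replicate 1 to 3, gave -0.65, 0.55 and 0.62, while the median of all genes was -0.16, 0.26 and 0.20. For the ICAM-1-/- libraries the same gave 0.72, 0.49 and -0.36, against 0.00, 0.47 and -0.20 over all genes. With replicates 2 and 3 alone it was -0.31, against -0.32 over all genes, and 15 of 62 members were positive (24.2%, against 30.3% of all genes). The standard deviation within groups on the log2 scale was larger with replicate 1. Its median over the members was 1.71 with all libraries, against 1.09 for all genes, and 0.82 with replicates 2 and 3, against 0.84.

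**Figure D3:**
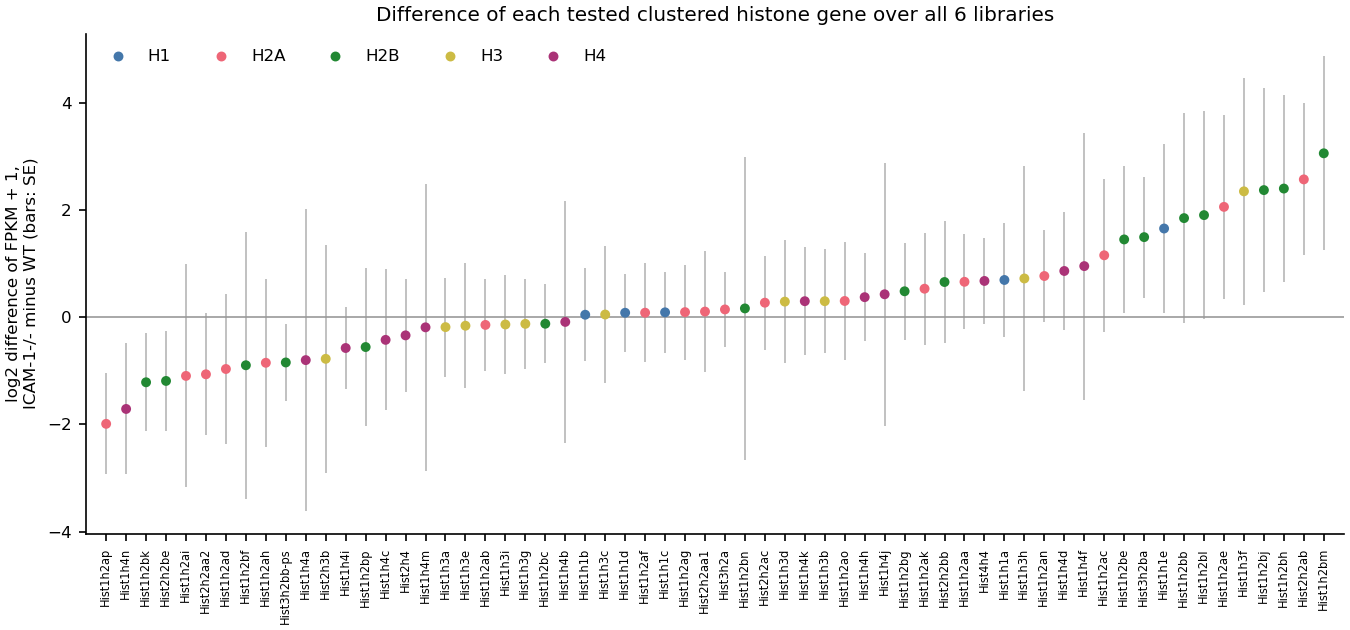
The log2 difference of each of the 62 tested members, ICAM-1-/- minus WT over all 6 libraries, in order of size and coloured by class, with bars of 1 SE. The points run from -1.99 (Hist1h2ap) to 3.06 (Hist1h2bm), most bars cross 0, and none passed the adjusted test.

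The members with the smallest p on the higher side were Hist2h2ab, Hist1h2bm, Hist1h2bh, Hist3h2ba, Hist1h2bj and Hist1h2ae, each with an adjusted p of 1.00 by limma. Hist2h2ab was a gene of low level, listed at 0 in WT replicates 1 and 2 and ICAM-1-/- replicate 2 and at 4.79, 43.8 and 26.4 FPKM in WT replicate 3 and ICAM-1-/- replicates 1 and 3. Its difference was 2.57 ± 1.42 (SE). The other 5 were at or near 0 in WT replicate 1 and measured in all other libraries. Hist1h2bh read 0, 313.6 and 156.7 FPKM in WT hosts and 71.2, 321.5 and 314.6 in ICAM-1-/- hosts. Hist1h2bj read 0.152, 595 and 461.8 FPKM in WT hosts and 214.2, 316 and 649.8 in ICAM-1-/- hosts. Hist1h2ae read 0, 214 and 225.8 FPKM in WT hosts and 74.3, 175.3 and 266.5 in ICAM-1-/- hosts. Hist3h2ba read 0, 23.9 and 8.84 FPKM in WT hosts and 10.9, 20.9 and 20.1 in ICAM-1-/- hosts. Apart from WT replicate 1, the WT and ICAM-1-/- values of these genes overlapped.

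Hist1h2bm, an H2B gene, was the member with the largest difference. It was listed at 0 in WT replicate 1 and read 407 and 273.2 FPKM in WT replicates 2 and 3, against 352.1, 383.8 and 478.8 in ICAM-1-/- replicates 1, 2 and 3. The difference over all 6 libraries was 3.06 ± 1.81 (SE). When the replicate number was entered as a block, the same difference had an SE of 0.73 and an adjusted p of 0.0238 by limma, and Hist1h2bm was the 1 member among the 13 genes of the table so called (0.124%). With replicates 2 and 3 alone the difference was 0.36 ± 0.65 (SE). In the blocked fit, the unadjusted p was under 0.05 for 10 of 62 members (16.1%), against 2.65% of all genes. Of these members 9 were higher in ICAM-1-/-, against 2.24% of all genes. All 10 were under 1 FPKM in WT replicate 1. Among genes under 1 FPKM there and at 100 FPKM or more on average in WT replicates 2 and 3, the shares were 8 of 18 members (44.4%) and 47 of 145 genes (32.4%).

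On the lower side the smallest p belonged to Hist1h2ap, Hist1h4n, Hist1h2bk, Hist2h2be, Hist3h2bb-ps and Hist2h2aa2, again with an adjusted p of 1.00 by limma. Hist1h2bk was the most abundant of these, at 106.9, 247.9 and 154.8 FPKM in WT hosts and 233.8, 18.7 and 71.7 in ICAM-1-/- hosts. Its difference was -1.21 ± 0.92 (SE), and with replicates 2 and 3 alone it was -2.38 ± 0.74 (SE) with an adjusted p of 0.408 by limma. In that fit the unadjusted p was under 0.05 for 5 of 62 members (8.06%), all lower, against 1.63% of all genes in either direction and 0.738% on the lower side, and 0 members were among the 18 genes called (0.175%). Hist2h2be read 6.74, 3.99 and 2.38 FPKM in WT hosts and 0, 1.10 and 4.25 in ICAM-1-/- hosts. Hist3h2bb-ps, which its symbol marks as a pseudogene, read 160.7, 136.9 and 165.4 FPKM in WT hosts and 59.4, 56.7 and 183.7 in ICAM-1-/- hosts, so that 2 of the 3 ICAM-1-/- libraries lay below all WT ones.

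The other 3 genes of that side have near-identical copies, and their values can depend on how reads were assigned to copies. Hist1h2ap read 0, 5.43 and 8.73 FPKM in WT hosts and 0, 0 and 0.000155 in ICAM-1-/- hosts. Its copy Hist1h2ao, which holds 93.4% of the 31-base words of the Hist1h2ap transcript, read 9.31 FPKM in ICAM-1-/- replicate 3, and the summed pair was 0, 5.44 and 13.2 FPKM in WT hosts and 0, 0 and 9.31 in ICAM-1-/- hosts. Hist1h4n read 0, 6.69 and 22.0 FPKM in WT and at most 4.03 in ICAM-1-/-, while the sum with its copy Hist1h4m was 0, 553.6 and 602.7 FPKM in WT hosts and 0, 169.2 and 1272 in ICAM-1-/- hosts. Hist2h2aa2 summed with Hist2h2aa1 to 0, 15.0 and 12.8 FPKM in WT hosts and 0, 1.62 and 8.66 in ICAM-1-/- hosts. No summed pair separated the groups. Across the members, a median of 58.9% of a transcript's 31-base words also occurred in another gene on either strand, and 14 members shared more than 90%. The other genes were not histone copies alone. Hist2h2bb and Hist2h3b shared 100% of their words with the gene model Gm20628, and Hist3h2a shared 32.1% with Trim17.

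Against WT replicates 2 and 3, the other 4 libraries moved in different ways. Over the 62 members the median of log2(FPKM + 1) minus the mean of WT replicates 2 and 3 was -2.88 in replicate 1 of WT and, for ICAM-1-/- replicates 1, 2 and 3, -1.38, -1.20 and 0.41. Over all tested genes it was -0.82, 0.18, -1.06 and 0.42. ICAM-1-/- replicates 2 and 3 thus shifted in opposite directions, as the table did. ICAM-1-/- replicate 2 lay below both WT replicates for 53 of 62 members (85.5%, against 77.1% of all genes), and ICAM-1-/- replicate 3 lay above both for 40 of 62 (64.5%, against 69.8%). Replicate 1 was below both for 56 of 62 members in WT (90.3%, against 58%) and for 48 of 62 in ICAM-1-/- (77.4%, against 34.5%).

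**Figure D4:**
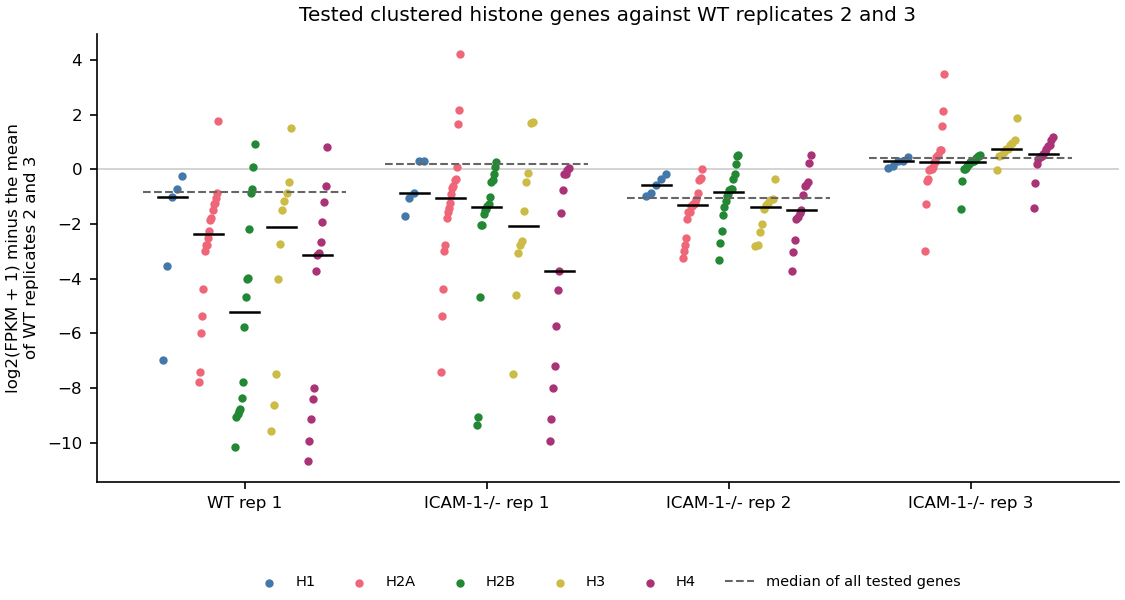
Each tested member's log2(FPKM + 1) minus the mean of WT replicates 2 and 3, in the other 4 libraries, by histone class, with black bars for class medians and dashed lines for the median of all tested genes. The members reach furthest below 0 in replicate 1 of each group and lie mostly above 0 in ICAM-1-/- replicate 3.

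The low level in replicate 1 was shared by other abundant genes. Among 401 genes at 100 FPKM or more on average in WT replicates 2 and 3, the median was -2.26 and -1.19 in the WT and ICAM-1-/- libraries numbered 1. For the 46 members among them it was -2.92 and -1.17. In ICAM-1-/- replicate 2 it was -0.78 for the 401 genes and -1.11 for the members, of which 91.3% lay below both WT replicates 2 and 3, against 75.8% of the 401. Since WT replicates 2 and 3 chose these genes, the values are descriptions without a test.

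In WT replicate 1 and ICAM-1-/- replicate 2 the level also moved with transcript length. In WT replicate 1, the 27 abundant members whose longest transcript model was under 600 bases had a median of -3.999, and in ICAM-1-/- replicate 2 they had -1.56. The 11 members of 600 to below 1200 bases had -2.73 and -0.87, and the 8 members of 1200 bases or more had -0.93 and -0.37. The 338 other abundant genes with a known length followed the same order in these libraries, from -6.36 and -1.90 at under 600 bases to -1.26 and -0.70 at 1200 bases or more. In ICAM-1-/- replicate 1 the members did not follow that order over the 3 classes, with -1.29, -1.55 and -0.61, against -3.25, -2.63 and -0.31 for other genes. In ICAM-1-/- replicate 3 all 6 medians lay between 0.32 and 0.54. Within the same length class, members lay above the other genes in WT replicate 1, at -2.73 against -5.35 in the middle class, and in ICAM-1-/- replicate 1 at under 1200 bases. The part of length in the group comparison was not tested.

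**Figure D5:**
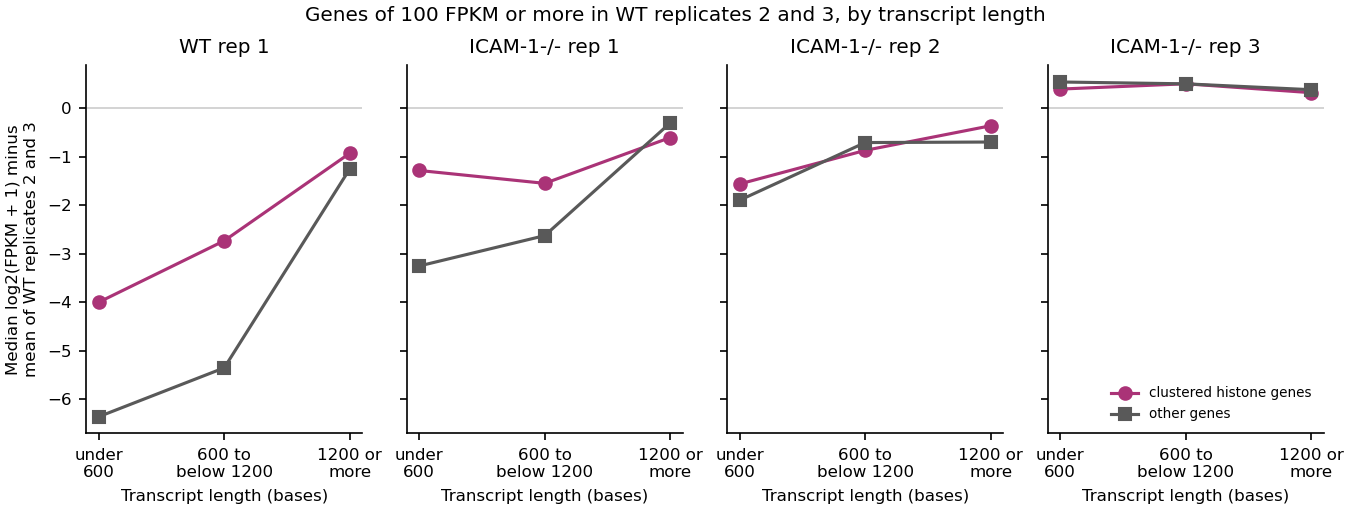
Median log2(FPKM + 1) minus the mean of WT replicates 2 and 3 by transcript length, for members and other genes at 100 FPKM or more in WT replicates 2 and 3, in the other 4 libraries. Medians rise with length in WT replicate 1, from -3.999 to -0.93 for members and from -6.36 to -1.26 for other genes, and stay level in ICAM-1-/- replicate 3.

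The end of the transcript model moved with the level in ICAM-1-/- replicate 2. The median of that library against WT replicates 2 and 3 was -1.78 for the 22 tested members that end within 100 bases of the stem-loop and -0.48 for the 20 that run on further. It was -1.24 for the 20 with no stem-loop in the model. In WT replicate 1 the same 3 sets had -2.87, -2.94 and -2.92, so no such order appeared there. Genes that run on are also longer, and the 2 properties were not separated. Of the 6 steadiest members, Hist1h1c, Hist2h4, Hist3h2a and Hist1h1d have models that run on for more than 100 bases after the stem-loop.

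H2A and H2B genes often lie head to head and share the sequence between them. There were 12 such pairs among neighbouring members. In WT replicate 1, 6 of 12 pairs had 1 partner at 10 FPKM or more and the other under 1 FPKM, and in ICAM-1-/- replicate 1 there were 5. In the other 4 libraries there were 0 by this rule, although partners could still differ widely. There Hist2h2ac read 471 to 1267 FPKM and its partner Hist2h2be 1.10 to 4.25. Of the pairs that met the rule, Hist1h2ak read 276.4 and 2017 FPKM in the WT and ICAM-1-/- libraries numbered 1, while its partner Hist1h2bn read 0 and 0.73. In WT replicates 2 and 3 and ICAM-1-/- replicates 2 and 3, Hist1h2bn read 1228, 1077, 905.9 and 1192 FPKM. Hist1h2bg and Hist1h2ae, another pair, read 247.3 and 0 FPKM in WT replicate 1. In ICAM-1-/- replicate 1 they read 1023 and 74.3 FPKM, so both were above 10 FPKM there.

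Promoters of 4 members are shown because they carry different elements and because these genes read differently in replicate 1. They come from RefSeq on GRCm38.p6 and run from 250 bases before to 50 after the gene start, 5′ to 3′ on the gene's strand. Capitals mark the motifs searched on both strands: the octamer ATTTGCAT, which POU factors such as Oct-1 bind, the CCAAT box, which NF-Y binds, the TATA box searched as TATAAA, and an element described in H1 promoters, searched as AAACACA.  Hist1h1b stayed high in replicate 1, and Hist1h2bm, Hist1h2bn and Hist1h4f were listed at 0 in WT replicate 1.
Hist1h1b (chr13:21780576-21780875, - strand): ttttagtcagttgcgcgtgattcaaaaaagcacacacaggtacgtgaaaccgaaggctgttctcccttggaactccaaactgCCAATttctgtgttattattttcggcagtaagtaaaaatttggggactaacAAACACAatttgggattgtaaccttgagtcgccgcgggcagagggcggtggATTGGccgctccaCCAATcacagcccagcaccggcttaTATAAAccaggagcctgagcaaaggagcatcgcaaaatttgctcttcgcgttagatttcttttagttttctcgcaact
Hist1h2bm (chr13:21721794-21722093, + strand): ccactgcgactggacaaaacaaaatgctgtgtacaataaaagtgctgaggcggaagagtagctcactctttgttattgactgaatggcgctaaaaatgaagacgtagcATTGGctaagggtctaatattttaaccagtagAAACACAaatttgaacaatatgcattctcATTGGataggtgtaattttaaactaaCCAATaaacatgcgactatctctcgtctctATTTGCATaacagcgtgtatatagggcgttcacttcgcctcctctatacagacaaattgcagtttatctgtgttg
Hist1h2bn (chr13:21753826-21754125, + strand): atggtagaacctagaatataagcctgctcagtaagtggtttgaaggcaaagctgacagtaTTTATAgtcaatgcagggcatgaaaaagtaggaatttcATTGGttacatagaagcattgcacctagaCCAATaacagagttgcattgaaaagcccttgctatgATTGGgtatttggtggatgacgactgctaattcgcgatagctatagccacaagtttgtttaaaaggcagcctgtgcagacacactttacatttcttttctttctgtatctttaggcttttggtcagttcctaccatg
Hist1h4f (chr13:23551619-23551918, - strand): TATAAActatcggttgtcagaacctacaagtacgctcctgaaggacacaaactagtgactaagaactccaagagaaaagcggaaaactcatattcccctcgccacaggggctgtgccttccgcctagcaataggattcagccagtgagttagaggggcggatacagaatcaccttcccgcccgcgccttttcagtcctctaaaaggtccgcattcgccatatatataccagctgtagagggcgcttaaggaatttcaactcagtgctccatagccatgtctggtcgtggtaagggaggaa
Of the 67 members, 61 had a promoter in the table. The octamer was found in 7 of 16 H2B promoters (43.8%) and 7 of 18 H2A promoters (38.9%), in 0 of the H1, H3 and H4 promoters, and in 1.74% of all 32851 promoters. CCAAT was found in every H1, H2A, H2B and H3 promoter and in 3 of 12 H4 promoters, against 37.4% of all. TATAAA was found in 4 of 6 H1, 11 of 18 H2A, 8 of 16 H2B, 4 of 10 H3 and 8 of 12 H4 promoters, against 13.6% of all. AAACACA was found in 5 of 6 H1 promoters and in 2 H2A and 2 H2B promoters, against 7.18% of all. The CCAAT and TATA matches are short words, and a match is not a site shown to be bound. Matches were counted at any position and on either strand. The TATAAA matches of Hist1h4f and Hist1h2bn lie far upstream of the gene start, away from where a TATA box sits. Of the 3 promoters shown whose genes were listed at 0 in WT replicate 1, that of Hist1h2bm holds the octamer and CCAAT, that of Hist1h2bn holds CCAAT but no octamer, and that of Hist1h4f holds neither.

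Genes that make and process histone mRNA were tested as a list of 26, of which 25 passed the filter. By limma 0 of 25 passed the adjusted test, 10 were positive and 15 negative, and the median difference was -0.07. Slbp, which encodes the stem-loop binding protein, read 60.3, 34.1 and 29.4 FPKM in WT hosts and 32.6, 18.2 and 37.5 in ICAM-1-/- hosts, and was thus highest in WT replicate 1, where the histone genes were lowest. Npat, the coactivator of histone transcription at the histone locus body, read 11.4, 3.29 and 3.43 FPKM in WT hosts and 1.81, 0.539 and 4.16 in ICAM-1-/- hosts. Hinfp, the H4 promoter factor, read 8.34, 4.52 and 5.195 FPKM in WT hosts and 6.08, 0.720 and 3.09 in ICAM-1-/- hosts. Casp8ap2, also a component of that body, had a difference of -0.07 ± 0.87 (SE). Of the U7 snRNP subunits, which take part in cleaving the mRNA after the stem-loop, Lsm11 had -0.31 ± 0.84 (SE). Lsm10, the other, was listed at 0 in WT replicate 1 and read 2.63 to 25.4 FPKM elsewhere. Of the rest, Cpsf2 (0.93 ± 0.73), Srrt (1.34 ± 1.32) and Ncbp2 (1.15 ± 1.13) had the smallest p, with Npat (-1.14 ± 0.93). In WT replicate 1 Srrt and Ncbp2 read 0.36 and 0 FPKM, while Cpsf2 read 12.87. In WT replicates 2 and 3 Srrt read 41.7 and 29.97 FPKM, and Ncbp2 read 8.506 and 6.245.

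The histone variants made outside the clusters, most of which have polyadenylated mRNAs, did not pass the test either. Of 16 listed, 14 were in the table and 11 were tested, with 0 called by limma, 5 positive, 6 negative and a median of -0.03. H2afy, which encodes macroH2A, was steady at 379, 422.4 and 460.4 FPKM in WT hosts and 529.4, 236.5 and 553.6 in ICAM-1-/- hosts. H3f3a, which encodes H3.3, read 100.8 and 37.8 FPKM in the WT and ICAM-1-/- libraries numbered 1 and 432.8 to 804.3 elsewhere. H3f3b, the other H3.3 gene, read 118.9 and 215.6 FPKM in those 2 libraries and 493.1 to 651.5 elsewhere. H2afz, which encodes H2A.Z, was listed at 0 and 39.0 FPKM in them, and 371.1 to 498.3 elsewhere. H2afx, the variant phosphorylated at DNA breaks, read 92.5, 133.1 and 149 FPKM in WT hosts and 238.7, 51.8 and 197.6 in ICAM-1-/- hosts. H3f3a, H3f3b and H2afz were thus low in both libraries numbered 1, while H2afy and H2afx were not low in both. The part of the poly(A) tail in these values was not tested.

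The S phase genes give the cell cycle side of the comparison. All 29 listed were tested, 0 were called by limma, 17 were positive and 12 negative, and the median was 0.08. Cdc45, a subunit of the replicative helicase, was listed at 0 in WT replicate 1 and read 21.8 and 14.1 FPKM in WT replicates 2 and 3, against 46.5, 44.0 and 23.2 in ICAM-1-/-. Ccne2, a cyclin E gene, read 27.0, 6.46 and 5.15 FPKM in WT hosts and 1.57, 0 and 5.23 in ICAM-1-/- hosts. Gins1, another helicase subunit, and Tyms, thymidylate synthase, had differences of -1.08 ± 0.78 and -1.19 ± 0.88 (SE). Cdc45 with 2.41 ± 1.12 and Ccne2 with -2.11 ± 1.03 (SE) had the largest differences of the 4, both with an adjusted p of 1.00. Replicate 1 of ICAM-1-/- lay below both WT replicates 2 and 3 for 34.5% of the S phase genes, the same share as of all genes, against 77.4% of the clustered histone genes. WT replicate 1 lay below both for 69% of the S phase genes, against 58% of all genes and 90.3% of the clustered histone genes. The S phase genes were not matched to the histone genes by level. Of the 401 genes at 100 FPKM or more on average in WT replicates 2 and 3, ICAM-1-/- replicate 1 lay below both for 67.1%. For the 46 members among them it was 78.3%. In WT replicate 1 these shares were 82% and 95.7%.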

How the data were processed

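Gene-level FPKM values of 6 libraries (3 per group, told apart by the sample titles) were used as the authors deposited them. Per the labels' protocols, Trizol was used to extract RNA, and an Illumina TruSeq RNA kit was run on 1 µg of it. The submitters' processing notes name cutadapt, TopHat2 2.0.11 and Cufflinks 2.1.1; the sources used here give no genome build, annotation or depth. FPKM divides by length, so 1 fragment weighs more in a short transcript. How reads common to near-identical copies were assigned is not stated.

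Values were tested as log2(FPKM + 1) with limma 3.58.1 in R 4.3.3 with a mean-variance trend, for genes with a mean of 1 FPKM or more, Benjamini-Hochberg adjusted over 10477 genes; adding 1 understates the change of low genes. On data simulated with the spread of these libraries the fit recovered the size of the changes on average but called no changed gene; with a smaller spread it called nearly all. No source says that libraries came from separate mice, so p-values measure the spread between libraries. Deviations from the group means correlated by 0.35, 0.126 and 0.306 between libraries of the same replicate number (every pair above 0.1), so the numbers were taken as pairing, although WT replicate 2 with ICAM-1-/- replicate 3 (0.306) and WT replicate 3 with ICAM-1-/- replicate 2 (0.152) correlated as much; a blocked fit is given where it changes a call. In the blocked fit and with replicates 2 and 3 alone, limma estimated an infinite prior, so each gene takes the spread of genes of like level rather than its own. Alternatives were other pseudocounts, scalings, filters, weights, values under 0.001 FPKM as missing, replicates 2 and 3 alone, and each library left out.

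The members and gene lists were chosen with earlier results of these data known. Members named are the 12 of highest mean, the 6 of smallest p in each direction, any called in the unblocked fit, the blocked fit or replicates 2 and 3 alone, the highest of each class and the testis genes; Hist1h1a, Hist1h1c, Hist1h2bn and others named as steady, paired or copied were added after their values were seen. In the other lists, fixed members and those of smallest p or highest mean are named. Transcript models, lengths and 31-base words come from GENCODE M21 and promoters from RefSeq, matched by symbol or synonym for all 67 members; the submitters' gene models may differ.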

Additional observations from a re-analysis of the deposited data

How the results depend on the processing

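The adjusted test called 0 of all genes and 0 of the 62 members, and of the alternatives the replicate block alone called a member (1). Over all genes the count was 4 with library weights, 13 with the replicate block, 18 with replicates 2 and 3 only, and 0 to 2 with each library left out. Members called with each library left out numbered 0 to 0. The groups of 6 members (10%, against 9.56% of all genes) did not overlap with values under 0.001 FPKM as missing, of 8 (12.9%, against 16.2%) with replicates 2 and 3 only, and of 0 to 5 with each library left out (0% to 8.06%, against 7.82% to 25.5%). The median difference of the members ran from -0.65 to 0.72 with each library left out, and was -0.08 with library weights and -0.14 with values under 0.001 FPKM as missing.

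Of 422 values of 25 named members, 375 kept their direction and side of the threshold, 46 changed sign and 1, Hist1h2bm under the replicate block, passed it. With median-of-ratios scaling the difference was 0.12 for Hist1h3e and 0.13 for Hist1h2ab, and rescaled without small RNA genes it was -0.05 for Hist1h3c and -0.06 for Hist1h1b. With library weights it was -0.43 for Hist1h3c, -1.04 for Hist1h4f, -0.19 for Hist2h2bb, -0.01 for Hist1h2bj and -0.08 for Hist1h2ae. With values under 0.001 FPKM as missing it was -2.61 for Hist1h4f, -0.20 for Hist1h2bh and -0.53 for Hist1h2ae. With replicates 2 and 3 only it was -0.63 for Hist1h2ak, -0.39 for Hist1h3c, -0.44 for Hist1h1b, -1.04 for Hist1h4f, -0.29 for Hist1h2bg, -0.86 for Hist1h3d, -0.29 for Hist2h2bb, -0.02 for Hist1h4h, -0.21 for Hist1h2bj and -0.02 for Hist1h2ae. Signs also changed when 1 library was left out, over ranges of -1.07 to 0.62 for Hist1h3e, -0.39 to 1.10 for Hist1h2ak, -0.18 to 1.58 for Hist1h4d, -1.28 to 0.96 for Hist1h3c, -0.20 to 0.45 for Hist1h1b, -2.61 to 2.84 for Hist1h4f, -0.25 to 0.91 for Hist1h2bg, -0.57 to 1.68 for Hist1h3d, -0.67 to 1.49 for Hist2h2bb, -0.64 to 0.20 for Hist1h2ab, -0.03 to 0.60 for Hist1h4h, -0.20 to 3.95 for Hist1h2bh, -0.57 to 3.94 for Hist1h2bj, -0.53 to 3.38 for Hist1h2ae and -1.98 to 0.02 for Hist2h2aa2. The causes were not tested. The blocked fit changed no other call of a member. With FPKM alone the depth is unknown, so a gene listed at 0 may be expressed below what was detectable, and copies of shared sequence limit single-gene values.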
